A study of Mus musculus with 6 samples.

Results

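The genes described here form the gate that holds a resting lymphocyte in G1 or quiescence: the D-type cyclins Ccnd2 and Ccnd3, their kinases Cdk4 and Cdk6, the inhibitors Cdkn1a, Cdkn1b, Cdkn2c and Cdkn2d, the retinoblastoma gene Rb1 and the antiproliferative gene Btg1. They were chosen by name and not by their values, though with earlier results of these data known. Of the 10 genes, 9 were listed among the 11162 genes of the deposited table, and all 9 passed the filter on low values, as did 9351 genes in all. Cdkn1a was not listed, so its expression is not analysed here and only its promoter was searched. RNA had been sequenced from naive CD8 T cells of mouse spleen, sorted by the brightness of Nur77-GFP, a reporter in which green fluorescent protein is expressed from regulatory sequence of Nr4a1, a gene switched on by signals through the T-cell receptor. All 6 samples carried the transgene Tg(Nr4a1-EGFP)GY139Gsat, and all had been gated as CD8+, CD44lo, CD62Lhi, Qa2hi and OT-I, the last being a transgenic T-cell receptor of a single specificity. The 3 GFP-hi and 3 GFP-lo samples differed in the labels only by reporter brightness. No treatment, time point or age is given for them in the labels, and nothing there says whether replicates came from separate mice, so the tests below measure the spread between samples, which may be partly technical.

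As background, D-type cyclins pair with CDK4 or CDK6 and phosphorylate RB1, which in its unphosphorylated form binds E2F transcription factors and keeps genes of DNA synthesis silent. Proteins of the INK4 family, among them the products of Cdkn2c and Cdkn2d, bind CDK4 and CDK6 and block their union with cyclin D, whereas the product of Cdkn1b belongs to the CIP/KIP family and restrains the kinase partners of cyclin E and cyclin A. Naive T cells rest outside the cycle until antigen and costimulation remove these brakes. The BTG1 protein recruits a deadenylase that shortens mRNA tails, and BTG proteins are known for keeping naive T cells quiescent.

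The promoters of 8 of the 10 genes were found in the RefSeq table of build GRCm38.p6, as 11 windows running from 250 bases before to 50 bases after a start site. Cdkn1a was among the 8, and Ccnd2 and Rb1 had no window. Besides the GC box GGGCGG, short words known from cell cycle and T-cell promoters were searched for on both strands. They were an E2F site (TTTCCCGC, TTTCGCGC, TTTGCCGC or TTTGGCGC), the cell cycle homology element (TTTGAA or TTCGAA), the site bound by single Nur77 molecules (AAAGGTCA) and a FOXO site (GTAAACA). The 250 bases before the start are printed here for Cdkn2c, the gene of the set with the largest difference between the populations, at both of its start sites, since these differ in base composition. Those of Ccnd3 and Btg1 are shown because they hold the Nur77 or FOXO word, and that of Cdk2, a gene of the wider pathway that passed the test, because it holds an E2F word. Capitals mark matches to any of the searched words on either strand.
Cdkn2c, upstream start, chr4:109666757-109667006, minus strand: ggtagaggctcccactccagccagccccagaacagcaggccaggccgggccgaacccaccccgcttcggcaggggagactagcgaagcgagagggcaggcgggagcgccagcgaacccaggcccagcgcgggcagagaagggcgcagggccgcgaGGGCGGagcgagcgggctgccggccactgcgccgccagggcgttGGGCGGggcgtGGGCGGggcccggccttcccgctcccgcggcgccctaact
Cdkn2c, downstream start, chr4:109665373-109665622, minus strand: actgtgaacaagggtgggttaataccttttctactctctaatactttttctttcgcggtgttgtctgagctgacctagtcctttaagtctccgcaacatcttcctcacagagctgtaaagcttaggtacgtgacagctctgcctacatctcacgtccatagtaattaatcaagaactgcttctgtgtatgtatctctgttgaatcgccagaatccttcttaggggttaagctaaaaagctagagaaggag
Ccnd3, upstream start, chr17:47504801-47505050, plus strand: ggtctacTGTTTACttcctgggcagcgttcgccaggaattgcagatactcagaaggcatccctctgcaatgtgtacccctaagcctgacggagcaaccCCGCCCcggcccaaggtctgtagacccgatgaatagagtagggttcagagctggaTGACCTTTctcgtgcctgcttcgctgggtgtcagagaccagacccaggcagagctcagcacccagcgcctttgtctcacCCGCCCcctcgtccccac
Btg1, chr10:96616751-96617000, plus strand: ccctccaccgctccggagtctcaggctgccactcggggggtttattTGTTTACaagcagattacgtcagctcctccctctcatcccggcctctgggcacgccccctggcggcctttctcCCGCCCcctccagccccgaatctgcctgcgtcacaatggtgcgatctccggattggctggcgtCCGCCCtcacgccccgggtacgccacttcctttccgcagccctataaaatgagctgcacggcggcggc
Cdk2, chr10:128705052-128705301, minus strand: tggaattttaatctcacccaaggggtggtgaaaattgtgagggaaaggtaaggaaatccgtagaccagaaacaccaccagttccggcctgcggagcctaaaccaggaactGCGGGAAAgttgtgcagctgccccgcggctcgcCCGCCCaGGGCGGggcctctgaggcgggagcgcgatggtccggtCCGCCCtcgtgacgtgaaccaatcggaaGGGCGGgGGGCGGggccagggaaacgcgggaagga

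The upstream start of Cdkn2c lay in sequence of 77.2% G and C with several GC boxes, and the downstream start in sequence of 42.8% G and C with none. No E2F word and no cell cycle homology element was found in the windows of the 8 genes, which says only that these letters are not in these windows. Over all 32851 windows of the table, 2.26% held an E2F word, 19.2% a cell cycle homology element, 1.51% the Nur77 word, 3.65% the FOXO word and 35.7% a GC box. Ccnd3 held the Nur77 word 97 bases before its upstream start and the FOXO word 243 bases before it, and Btg1 held the FOXO word 204 bases before its start. GC boxes were found in 7 of the 8 genes, among them Cdkn1a, whose expression was not tested. Counted per gene, as here, 70.1% of tested genes with a window in the table held a GC box, so the GC box count lay near the background. The shares were 3.05% for the FOXO word, 1.14% for the Nur77 word, 5.12% for an E2F word and 16.1% for a cell cycle homology element. For these words the matches came to at most 2 of the 8 genes and were not tested against the shares.

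None of the 9 genes passed the test between GFP-hi and GFP-lo cells (limma on log2(RPKM + 1), adjusted p under 0.05 over all genes tested), and no direction was called for any of them. RPKM counts reads relative to the length of the gene and the size of the library. Over all genes tested 3.95% passed, 230 higher and 139 lower in GFP-hi; scaling by the trimmed mean of M values gave 201 and 186, or 51.9% higher in place of 62.3%. With 1 library left out the counts ran from 73 to 173 higher and from 60 to 125 lower, the fewest without GFP-lo replicate 2 (73 and 61) and without GFP-hi replicate 1 (89 and 60). At an unadjusted p under 0.05 there were 5 of the 9 genes (Cdk4, Cdk6, Cdkn2c, Cdkn2d and Rb1), against 20.2% of all genes tested. In 5 genes (Ccnd2, Cdk4, Cdk6, Cdkn2c and Rb1) the 3 GFP-hi values all lay above the 3 GFP-lo values, against 17.1% of all genes tested, and in none did all lie below, against 9.84%. Differences are given as GFP-hi minus GFP-lo of the mean log2(RPKM + 1), in log2 units (the log2 fold change of RPKM + 1), each with the standard error (SE) and 95% interval from limma. The estimate was above 0 in 8 of the 9 genes and in 55.5% of all genes tested. Its median was 0.17 over the 9 genes and 0.02 over all genes tested. The largest unadjusted p that still gave an adjusted p under 0.05 was 0.0020, and the smallest of the 9 genes was 0.0037.

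**Figure D1:**
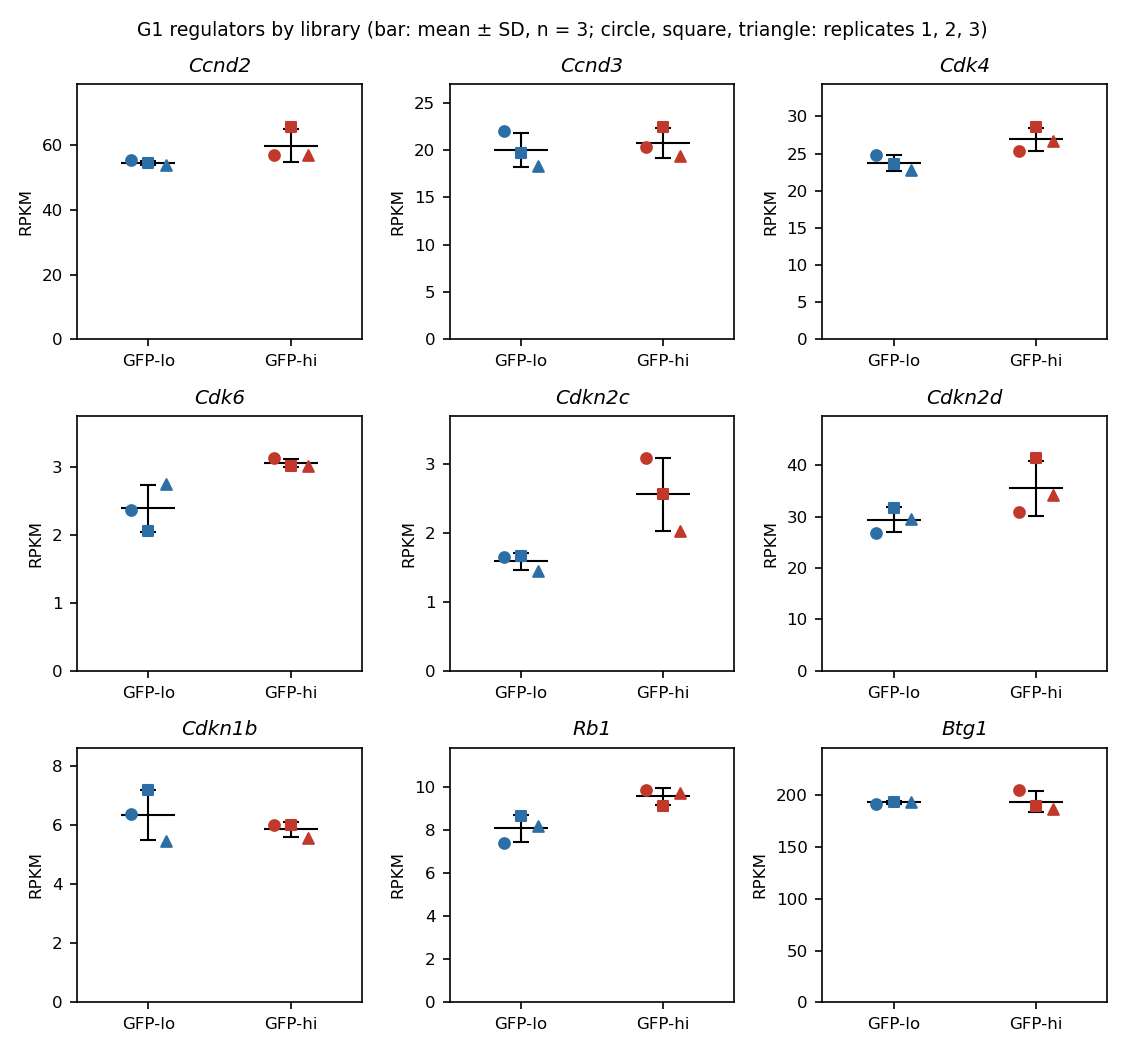
RPKM of the 9 listed genes in each library, in a panel per gene with the axis starting at 0; symbols are replicates 1 to 3, and bars are the mean ± SD (n = 3) of GFP-lo (blue) and GFP-hi (red). Cdkn2c runs from 1.45 to 1.67 RPKM in GFP-lo and from 2.03 to 3.09 RPKM in GFP-hi, whereas the GFP-lo values of Btg1 (191 to 194 RPKM) lie inside the range of its GFP-hi values (186 to 205 RPKM).

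The genes spanned a wide range of levels. By mean RPKM over the 6 libraries the order was Btg1 (193 ± 6.39, SD, n = 6), Ccnd2 (57.1 ± 4.31), Cdkn2d (32.4 ± 4.97), Cdk4 (25.3 ± 2.12), Ccnd3 (20.3 ± 1.58), Rb1 (8.82 ± 0.933), Cdkn1b (6.10 ± 0.625), Cdk6 (2.72 ± 0.425) and Cdkn2c (2.08 ± 0.634). The 6 values of neighbours in this order did not overlap except for Cdkn2d with Cdk4 and for Cdk6 with Cdkn2c; in both of these pairs the first gene was still the higher one in each of the 6 libraries. Among tested genes ordered by level, Btg1 stood at percentile 99.2 and Cdkn2c at percentile 10.6.

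The D-type cyclins came first in the pathway and showed little difference. Ccnd2 (Entrez 12444, chr6:127125162-127152188) had 56.9, 65.5 and 56.8 RPKM in the GFP-hi libraries and 55.2, 54.2 and 53.8 in the GFP-lo libraries. The groups did not overlap, but GFP-hi replicates 1 and 3 lay close to the highest GFP-lo library. For Ccnd2 the estimated difference was 0.13 log2 units (SE 0.066, 95% interval -0.02 to 0.28, limma adjusted p = 0.33), and 0.06 with GFP-hi replicate 2 left out. Ccnd3 (Entrez 12445, chr17:47505051-47599689) had 20.3, 22.4 and 19.3 RPKM in GFP-hi and 22.0, 19.7 and 18.3 in GFP-lo. These groups overlapped throughout, and the estimated difference was 0.05 log2 units (SE 0.081, 95% interval -0.14 to 0.23, limma adjusted p = 0.81). Leaving out either GFP-hi replicate 2 or GFP-lo replicate 3 gave -0.01, and leaving out GFP-hi replicate 3 or GFP-lo replicate 1 gave 0.09 and 0.11. Ccnd2 made up 74.3% ± 0.513 of the summed RPKM of both cyclins in GFP-hi and 73.1% ± 1.54 in GFP-lo (SD, n = 3 each), and these shares overlapped. Ccnd1, the third D-type cyclin gene, was not listed.

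The partner kinases had higher values in each GFP-hi library than in any GFP-lo library, without passing the test. Cdk4 (Entrez 12567, chr10:127063535-127067288) had 25.4, 28.6 and 26.7 RPKM in GFP-hi and 24.8, 23.6 and 22.8 in GFP-lo. The lowest GFP-hi library lay just above the highest GFP-lo library. For Cdk4 the estimate was 0.17 log2 units (SE 0.062, 95% interval 0.03 to 0.32, limma adjusted p = 0.17). Cdk6 (Entrez 12571, chr5:3341004-3531008) was present at a far lower level than Cdk4, with 3.12, 3.01 and 3.02 RPKM in GFP-hi and 2.37, 2.05 and 2.74 in GFP-lo. The GFP-hi libraries were close to one another, and the spread lay in GFP-lo. For Cdk6 the estimate was 0.26 log2 units (SE 0.085, 95% interval 0.07 to 0.46, limma adjusted p = 0.14). Cdk4 made up 89.8% ± 0.700 of the summed kinase RPKM in GFP-hi and 90.8% ± 1.42 in GFP-lo (SD, n = 3 each), with overlapping groups.

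Among the inhibitors, the INK4 gene Cdkn2c had the largest difference of the set. Cdkn2c (Entrez 12580, chr4:109660876-109666756), whose promoters are printed with the sequences, had 3.09, 2.57 and 2.03 RPKM in GFP-hi and 1.65, 1.67 and 1.45 in GFP-lo. Every GFP-hi library was above every GFP-lo library, and the GFP-hi libraries were spread more widely. The means of 2.56 ± 0.528 and 1.59 ± 0.124 RPKM (SD, n = 3 each) stood in a ratio of 1.61. The estimated difference of 0.45 log2 units (SE 0.11, 95% interval 0.19 to 0.71) was larger in size than that of 97.4% of tested genes but missed the threshold (limma adjusted p = 0.069). It passed with GFP-hi replicate 3 left out (0.56, limma adjusted p = 0.035) and in no other of 17 alternative fits, over which the adjusted p ran from 0.035 to 0.25. With a pseudocount of 0.1 in place of 1, which shrinks differences of low genes less, it was 0.64 (limma, adjusted p = 0.066).

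Cdkn2d (Entrez 12581, chr9:21288459-21291421) was the more abundant INK4 gene, with 30.9, 41.3 and 34.2 RPKM in GFP-hi and 26.9, 31.7 and 29.5 in GFP-lo. GFP-lo replicate 2 exceeded GFP-hi replicate 1, so the groups overlapped. For Cdkn2d the estimate was 0.26 log2 units (SE 0.11, 95% interval 0.01 to 0.50, limma adjusted p = 0.23). It was 0.15 with GFP-hi replicate 2 left out. Among GFP-hi replicates 1 and 3 and GFP-lo replicates 2 and 3 it was 0.09 (limma, adjusted p = 0.47). An earlier analysis of these data had set these libraries apart by more reads of nasal receptor genes, which are not reported here. This division leaves out the libraries with the highest Cdkn2d value (GFP-hi replicate 2) and the lowest (GFP-lo replicate 1). Cdkn2d made up 93.2% ± 1.93 of the summed INK4 RPKM in GFP-hi and 94.8% ± 0.574 in GFP-lo (SD, n = 3 each).

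Cdkn1b (Entrez 12576, chr6:134920401-134925525) was the only gene of the set with a mean lower in GFP-hi, namely 6.0, 6.01 and 5.56 RPKM against 6.37, 7.18 and 5.47 in GFP-lo. The lowest of the 6 values was a GFP-lo library, and the groups overlapped. For Cdkn1b the estimate was -0.09 log2 units (SE 0.090, 95% interval -0.30 to 0.11, limma adjusted p = 0.62). It was -0.01 with GFP-lo replicate 2 left out and -0.18 with GFP-lo replicate 3 left out. The summed RPKM of Cdkn2c and Cdkn2d was 5.67, 7.30 and 6.51 times that of Cdkn1b in the GFP-hi libraries and 4.48, 4.65 and 5.66 times in the GFP-lo libraries. These ratios did not overlap, but GFP-hi replicate 1 and GFP-lo replicate 3 were almost equal. This ratio was not tested.

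Rb1 (Entrez 19645, chr14:73192858-73325951), the substrate of the cyclin D kinases, had 9.86, 9.13 and 9.71 RPKM in GFP-hi and 7.42, 8.64 and 8.19 in GFP-lo. The groups did not overlap, and GFP-hi replicate 2 lay closest to GFP-lo. For Rb1 the estimate was 0.22 log2 units (SE 0.068, 95% interval 0.06 to 0.38, limma adjusted p = 0.12). Lpar6, a lysophosphatidic acid receptor gene, lies on the opposite strand, and 408 bases of its exons overlap annotated exons of Rb1. It had 22.0, 23.8 and 22.0 RPKM in GFP-hi and 18.6, 19.6 and 19.4 in GFP-lo (estimate 0.22, limma adjusted p = 0.068). Exons of Rcbtb2, also on the opposite strand, overlap annotated exons of Rb1 by 488 bases. Values of Rcbtb2 are not reported here. Reads of both strands are not told apart by this library kit, so Rb1 may share reads with Lpar6 and Rcbtb2. The part of this in the Rb1 values was not tested.

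Btg1 (Entrez 12226, chr10:96617001-96622813), the most abundant gene of the set, had 205, 189 and 186 RPKM in GFP-hi and 191, 194 and 194 in GFP-lo. The highest and the lowest value were both GFP-hi libraries. For Btg1 the estimate was 0.0021 log2 units (SE 0.056, 95% interval -0.13 to 0.13, limma adjusted p = 0.99).

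**Figure D2:**
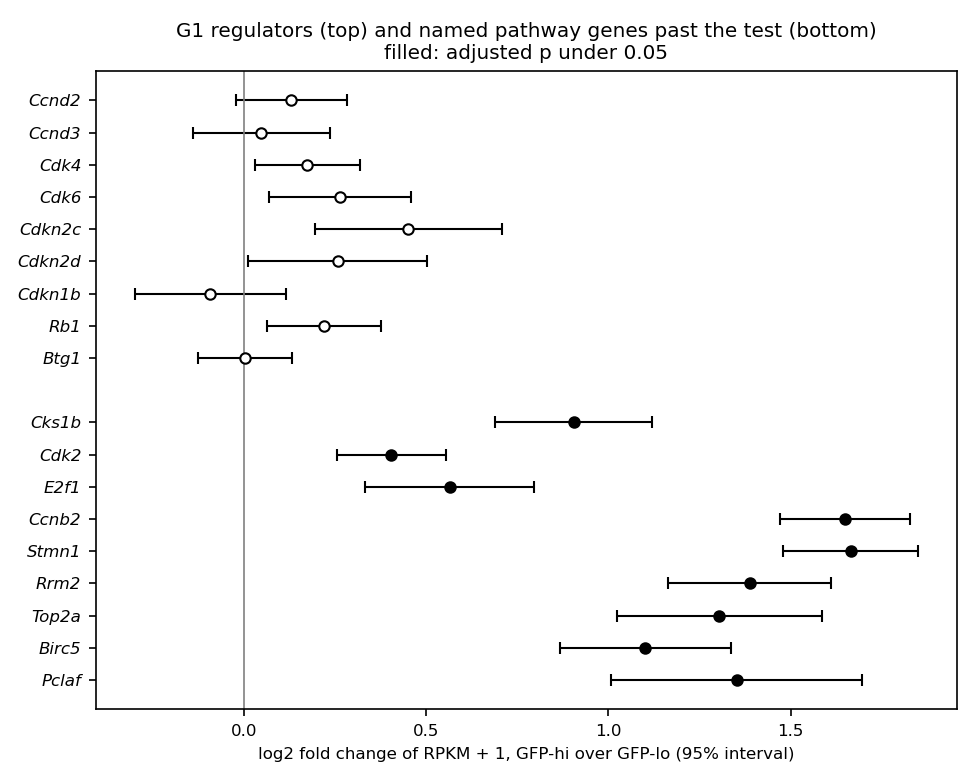
Log2 fold change of RPKM + 1 between GFP-hi and GFP-lo, with its 95% interval from limma, for the 9 genes (top) and for named pathway genes past the test (bottom); filled points have an adjusted p under 0.05. All 9 points at the top are open, the highest being Cdkn2c at 0.45, and the points at the bottom run from 0.40 (Cdk2) to 1.66 (Stmn1). The genes at the bottom were drawn because they passed the test, so the contrast of filled and open points follows from that choice. Among them, Ccnb2, Top2a, Birc5 and Pclaf passed the filter on low values only through GFP-hi.

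Exons of Ccnd2, Ccnd3, Cdk4 and Cdk6 also overlap exons of opposite-strand genes. For Cdk4 the overlap with Tspan31 spans 641 bases, and Tspan31 had values in the other direction, 8.06 ± 0.352 RPKM in GFP-hi and 9.83 ± 1.10 in GFP-lo (SD, n = 3 each; estimate -0.25, limma adjusted p = 0.13). For Ccnd3 the overlap with Bysl spans 361 bases, with an estimate of -0.12 for Bysl (limma adjusted p = 0.26). How these overlaps were counted is not given in the sources used here.

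Other genes of the pathway were taken from 9 lists chosen for their roles, with 96 of 118 genes tested. Of these, 15 were higher and 0 lower in GFP-hi (limma, adjusted p under 0.05), and 12 of the 15 were on the list of S phase and mitosis genes. The 15 include 6 genes that reached a mean of 1 RPKM only through GFP-hi; at a mean RPKM of at least 5, 5 of 72 tested genes were higher, against 1.86% of all genes. There were 8 higher without GFP-hi replicate 1, 9 without GFP-hi replicate 3 and 25 with array quality weights, which also called 1 lower. The same background applies, with 2.46% of all genes tested called higher and 1.49% called lower. Without that list 3 of 77 genes were higher, or 3.90%, with a median difference of 0.01. In bulk RNA, fewer cells of a kind and less RNA per cell cannot be told apart.

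The list of other G1 cyclins, kinases and activators had 11 genes tested, of which 2 were higher and none lower, with a median difference of 0.21. Cks1b encodes a small subunit that binds cyclin-dependent kinases and aids the destruction of the CDKN1B protein. It had 5.61, 4.90 and 6.24 RPKM in GFP-hi and 2.22, 2.60 and 2.71 in GFP-lo. The populations were far apart, by 0.90 log2 units (SE 0.093, limma adjusted p = 0.0027). Cdk2, the partner of cyclin E, had 5.10, 4.94 and 4.85 RPKM against 3.79, 3.37 and 3.36 RPKM, a rise of 0.40 log2 units (SE 0.065, limma adjusted p = 0.015). Cks1b kept its call when any 1 library was left out; Cdk2 kept it in 2 of those 6 fits, with adjusted p values up to 0.073.

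Of 9 tested genes among pocket proteins and E2F factors, E2f1 rose and none fell, and the list median was 0.08. E2f1, an activator of S phase genes that RB1 holds in check, had 2.73, 2.09 and 2.93 RPKM in GFP-hi and 1.52, 1.32 and 1.39 in GFP-lo. All GFP-hi values lay above the GFP-lo values, a rise of 0.56 log2 units (SE 0.10, limma adjusted p = 0.023). E2f1 kept its call in 1 of the 6 fits without 1 library, where adjusted p rose to 0.093. The Rb1 relatives Rbl1 and Rbl2 had estimates of -0.15 and -0.04 (limma, adjusted p = 0.52 and 0.82).

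No gene passed the test on the remaining lists of G1 control. On the list of 10 genes for the turnover of G1 regulators, 9 were tested, with a median of 0.03; Skp1a and Rbx1, subunits of a ubiquitin ligase, had the smallest adjusted p values (0.23 and 0.41, limma). The MuvB and DREAM complex list had 6 tested genes and a median of 0.04, led by Lin37 (0.13, limma adjusted p = 0.24) and Rbbp4 (0.14, limma adjusted p = 0.38). All 17 genes of the list of BTG and TOB proteins and the CCR4-NOT deadenylase were tested, with a median of -0.02. Its smallest adjusted p values were those of the deadenylase subunits Cnot2 (0.13, limma adjusted p = 0.26) and Cnot6 (0.14, limma adjusted p = 0.34). The BTG and TOB genes of this list had estimates below 0: Btg2 -0.32, Btg3 -0.09, Tob1 -0.20 and Tob2 -0.19 (limma, adjusted p from 0.42 to 0.67). The growth drive list had 6 tested genes and a median of -0.00092, with Jund (-0.24) and Rptor (-0.08) at limma adjusted p values of 0.33 and 0.65. None of the other CDK inhibitor genes of the list (Cdkn1c, Cdkn2a, Cdkn2b and Cdkn3) was listed in the table.

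The list of quiescence regulators of naive T cells had 19 tested genes and a median of -0.07, with no gene past the test. Mxd4 encodes a partner of MAX that opposes MYC. It had 8.17, 10.3 and 7.0 RPKM in GFP-hi and 6.05, 5.08 and 4.50 in GFP-lo. Its groups did not overlap, and its estimate of 0.60 missed the threshold (SE 0.14, limma adjusted p = 0.052). Foxo1, a transcription factor that sustains quiescence and homing of naive T cells, had 54.9 ± 1.71 RPKM in GFP-hi and 49.7 ± 1.15 in GFP-lo (SD, n = 3 each; estimate 0.14, limma adjusted p = 0.18).

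**Figure D3:**
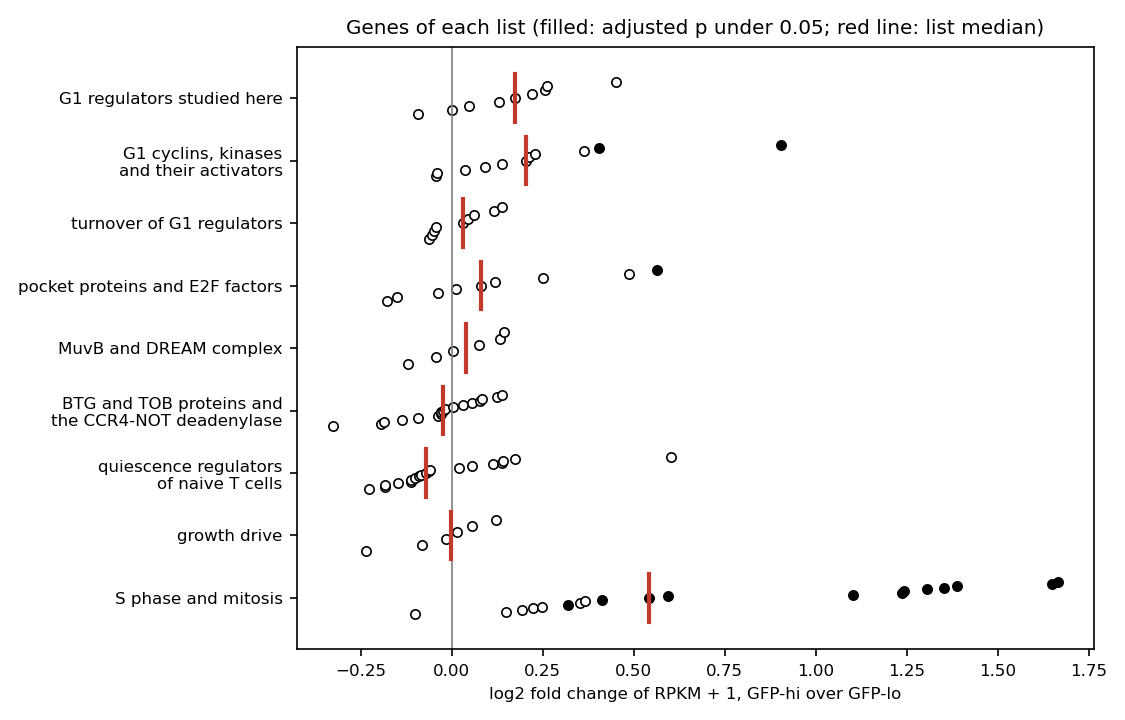
Log2 fold change of RPKM + 1, GFP-hi over GFP-lo, of each tested gene of the set studied here and of the pathway lists; filled points have an adjusted p under 0.05 and red lines are list medians. The filled points lie on 3 lists, 12 of them on S phase and mitosis (median 0.54), and the set studied here has none (median 0.17).

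Most tested genes of S phase and mitosis moved with the populations, and values of the strongest stand here beside those of the G1 genes. Of 19 tested, 12 rose and none fell. A rise of cell cycle genes in these libraries was known before the lists were chosen. Rrm1, Pcna, Mcm2, Mcm3, Mcm4, Tyms and Cdt1 were not called. Their estimates ran from -0.10 (Cdt1) to 0.37 (Tyms), with limma adjusted p from 0.061 to 0.53. Of those called, Mcm6 and Mcm7 each kept the call in 2 of the 6 fits without 1 library. In 6 of the 12 (Birc5, Bub1b, Ccnb2, Mki67, Pclaf and Top2a) the GFP-lo mean was under 1 RPKM, so that they entered the test only through their GFP-hi values. With no filter on low values, 15 of all 25 genes of the list rose and none fell (limma, adjusted p under 0.05), against 2.23% of all 11162 genes called higher. Ccnb2, a mitotic cyclin, had 4.48, 4.0 and 4.26 RPKM in GFP-hi and 0.600, 0.621 and 0.799 in GFP-lo (a rise of 1.65, limma adjusted p = 9.7e-05). Rrm2, a subunit of the enzyme that makes deoxynucleotides, had 6.27, 5.16 and 6.54 against 1.61, 1.90 and 1.49 RPKM (1.39, limma adjusted p = 0.00079). Both pairs of groups were widely separate, whereas their levels stayed below those of most of the G1 genes. The other genes named from this list by smallest adjusted p were Stmn1 (1.66), Pclaf (1.35), Top2a (1.30) and Birc5 (1.10), which also rose (limma, adjusted p = 9.7e-05, 0.0037, 0.0019 and 0.0019). GFP-hi replicate 2 had the lowest value of the GFP-hi libraries for each of these 6 genes. Their part in the differences of the G1 genes was not tested.

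The promoters of 14 of the 15 pathway genes past the test were in the RefSeq table. An E2F word was found in 5 of them (Cdk2, Pclaf, Mcm5, Mcm6 and Mcm7) and a cell cycle homology element in 7. Among the tested genes with a window in the table, 5.12% held an E2F word and 16.1% a cell cycle homology element. In Cdk2 the E2F word TTTCCCGC, read on the minus strand of the printed sequence, lay 140 bases before the start. These matches are descriptions of sequence and show no binding. Of the 15 genes, 12 came from the S phase and mitosis list, and the words searched for were known from cell cycle promoters. A share above the background could follow from this choice alone, so the comparison is no test. Pclaf (E2F word) and Bub1b, Ccnb2, Mki67 and Top2a (cell cycle homology element) passed the filter only through their GFP-hi values.

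**Figure D4:**
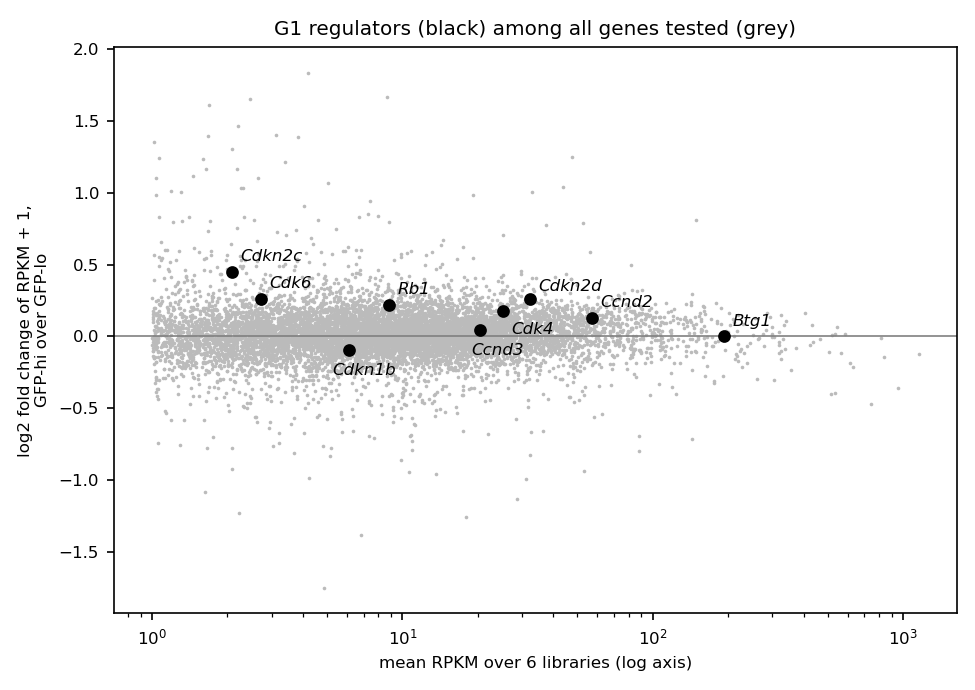
Mean RPKM over the 6 libraries (log axis) against the log2 fold change of RPKM + 1, GFP-hi over GFP-lo, for all genes tested (grey) and the 9 genes (black, labelled). The 9 genes run from 2.08 RPKM (Cdkn2c) to 193 RPKM (Btg1) and lie between -0.09 and 0.45, inside the range of the grey points at their level.

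The genes varied to differing degrees within the populations. The within-group SD on the log2(RPKM + 1) scale was 0.17 for Cdkn2d and 0.16 for Cdkn2c, above that of 88.2% and 86.9% of tested genes, and 0.05 for Btg1, above 15.7%. The SD was above that of 33.0% (Cdk4), 40.5% (Rb1) and 43.6% (Ccnd2) of tested genes, and of 62.1% (Cdk6), 69.1% (Ccnd3) and 75.5% (Cdkn1b). Ccnd2, Ccnd3, Cdk4 and Cdkn2d all had their highest value in GFP-hi replicate 2. GFP-hi replicate 2 also had the largest RPKM summed over all genes (181597, against 171842 to 177425 in the other libraries). That library and GFP-lo replicate 2 had 1100 and 1234 RPKM of the heat-shock gene Hspa1a, against 152 to 235 RPKM in the other 4. In those 4 libraries the estimates were 0.06 for Ccnd2, -0.02 for Ccnd3, 0.13 for Cdk4, 0.20 for Cdkn2d, 0.47 for Cdkn2c and 0.29 for Rb1, and none passed the test. With all libraries scaled by the trimmed mean of M values, they were 0.10 for Ccnd2, 0.02 for Ccnd3, 0.15 for Cdk4 and 0.23 for Cdkn2d.

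The pattern over the 6 libraries was compared with that of all tested genes for the 2 genes with the smallest adjusted p. Closest to Cdkn2c by Pearson's r of log2(RPKM + 1) were C2cd5 (0.993), As3mt (0.985), Map2k5 (0.980), Ndufaf7 (0.977) and Rwdd2b (0.977). Among those closest to Rb1 were Slc31a1 (0.992), Hipk2 (0.985), Asap1 (0.984) and Slc35g1 (0.983). None of these genes passed the test between the populations (limma, adjusted p from 0.089 to 0.69). With 6 libraries in 2 groups and 9351 genes searched, these values only describe the libraries.

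The labelled cell type was checked against marker genes. Of 8 CD8 T cell markers 7 were listed, with a summed level of 1770 to 1882 RPKM in GFP-hi and 1748 to 1799 RPKM in GFP-lo, led by Cd8b1. All 6 naive T cell markers were listed (1286 to 1522 and 1414 to 1697 RPKM), led by Tcf7; Il7r was lower in GFP-hi (estimate -0.80, limma adjusted p = 0.0022). Of 8 B cell markers 3 were listed, at 12.6 to 14.2 RPKM in GFP-hi and 11.0 to 11.4 RPKM in GFP-lo. Cd79b carried most of this (0.26, limma adjusted p = 0.075), and Cd79a, Pax5, Ebf1 and Ighm were among those not listed. Myeloid (2 of 8 listed, led by Cd68) and erythroid markers (1 of 6, Hba-a1) each summed to at most 2.50 RPKM in any library. Of the 4 CD4 T cell markers only Cd40lg was listed, and it was lower in GFP-hi (-1.13, limma adjusted p = 0.011); thymocyte markers (4 of 6 listed) were led by Cd8b1, and NK cell markers (3 of 5 listed, 307 to 322 and 282 to 291 RPKM) by Nkg7, which CD8 T cells also express. Of the heat shock and dissociation genes 16 of 17 were listed, led by Hspa1b, and Socs3 was lower in GFP-hi (-0.93, limma adjusted p = 0.021). The part of these genes in the differences of the G1 genes was not tested.

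Depth recovered from the steps of low RPKM values was 26172000 to 35940000 reads per library. In the library with the fewest reads of the gene, a kilobase of transcript thus rested on 37.9 reads for Cdkn2c and 58.3 reads for Cdk6, against 5065 reads for Btg1. Nr4a1 itself had 61.5 ± 27.3 RPKM in GFP-hi and 60.6 ± 25.6 in GFP-lo (SD, n = 3 each; limma, adjusted p = 0.98), so it did not check the sort labels.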

How the data were processed

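RNA from 3 GFP-hi and 3 GFP-lo samples had been made into libraries with the SMART-seq v4 and Nextera XT kits, per the labels' protocols. The deposited values are RPKM in 1 column per library, per the file headers. STAR and build mm10 are named in the submitters' processing notes; the read counter and annotation are not given in the sources used here. Tested were genes whose mean RPKM reached 1, with limma 3.58.1 (R 4.3.3) on log2(RPKM + 1), with a mean-variance trend, two-sided, Benjamini-Hochberg adjusted over 9351 genes. Such fold changes understate those of low genes. The fit was tested on simulated data: of 200 genes changed by 1 on the log2 scale among 9351, 95.3% were recovered (5 simulations), and 4.11% of calls were false. The estimates of the G1 genes were all smaller than that change, and recovery of smaller changes was not simulated.

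Groups came from the phenotype label, and replicate numbers from record order, so they only name libraries. For 14 genes the symbol was a date and for 1 it was missing; these were named by Entrez ID from RefSeq. Depth was sought as the library size at which RPKM times transcript length (GENCODE M21, of 800 genes with a single transcript) came closest to whole reads; 86.9% to 90.2% of those products then fell less than 0.1 from a whole number (20% by chance). PCR copies may be among these reads, so true error may exceed counting error. Promoters and gene positions are RefSeq's, build GRCm38.p6. Figures were drawn with matplotlib 3.10.9.

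The genes and lists were chosen with earlier results of these data known. By the rule for naming, the text names all members; from each pathway list up to 6 genes past the test or, with none, the 2 with the smallest adjusted p; from each marker list the most abundant gene and those past the test. Further genes (Rbl1, Rbl2, Btg2, Btg3, Tob1, Tob2, Lpar6, Rcbtb2, Tspan31, Bysl, Hspa1a, Nr4a1 and those named for a motif or as not listed) were chosen after their values, overlaps or sequences were seen. So were Bub1b, Mki67 and the S phase and mitosis genes named as not called. Alternatives changed the pseudocount, filter, scaling, variance model and libraries. Some genes that the rules for named genes and markers cover are not reported here.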

Additional observations from a re-analysis of the deposited data

How the results depend on the processing

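None of the 9 G1 genes passed the test in 16 of 18 alternative fits: array quality weights called 2 higher (Cdk4, 0.18, adjusted p = 0.033; Rb1, 0.20, adjusted p = 0.029), and the fit without GFP-hi replicate 3 called 1 (Cdkn2c). None was called lower in any fit. The sign of the log2 fold change turned for Btg1 in 6 of the fits and for Ccnd3 in 3, and for none of the other 7 genes. Leaving out 1 library gave 0 to 1 of the genes higher, 8 to 15 pathway genes higher and 0 lower, and, over all genes, 73 to 173 higher and 60 to 125 lower. Over all genes, 47 were higher and 43 lower in the 4 libraries without replicate 2 of either group, where fewer samples entered. A mean RPKM of at least 5 left 6412 genes, of which 119 were higher and 83 lower, with 5 pathway genes higher; it removed Cdk6 and Cdkn2c. Array quality weights gave 783 higher and 499 lower, with 25 pathway genes higher and 1 lower; the cause was not tested. The 4 libraries with more nasal receptor reads (GFP-hi replicates 1 and 3, GFP-lo replicates 2 and 3) were a division taken from an earlier analysis of these data. In these libraries the estimates were 0.07 for Ccnd2, 0.06 for Ccnd3, 0.16 for Cdk4 and 0.27 for Cdk6. They were 0.46 for Cdkn2c, 0.09 for Cdkn2d, -0.10 for Cdkn1b, 0.20 for Rb1 and 0.01 for Btg1. No paired analysis was run, because the labels carry no number shared between the groups. A pairing by record order was not tested. Of the 9 genes, Cdkn2c and Cdk6 rested on the fewest reads per kilobase.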
